A study of Mus musculus with 36 samples.

Results

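GABA is the main inhibitory transmitter of the adult brain. It is made from glutamate by glutamate decarboxylase, an enzyme with a pair of forms encoded by Gad1 (GAD67) and Gad2 (GAD65). It acts on GABA-A receptors, chloride channels assembled from subunits whose combination differs between cell types. The 7 genes described here are Gad1, Gad2 and the receptor subunit genes Gabra2, Gabra4, Gabra5 (alpha subunits, which shape the binding of GABA and of benzodiazepines), Gabrb1 (a beta subunit) and Gabrd (the delta subunit of receptors outside the synapse, which carry tonic inhibition).

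They were taken by gene symbol from the 30854 symbols of the array table, in which 11 of 45281 probes carried one of the 7 names. Adult male C57BL/6J mice were injected intraperitoneally once a day for 10 days, and tissue was taken 1 h after the last injection. They received either vehicle or one of 3 histone deacetylase inhibitors, namely CI-994 at 10 mg/kg, SAHA at 25 mg/kg or Cpd-60, which is selective for HDAC1 and HDAC2, at 45 mg/kg. The hippocampus (HIP), the nucleus accumbens (NAc) and the prefrontal cortex (PFC) were hybridized separately to 36 Illumina MouseWG-6 arrays, each with RNA pooled from 2 mice, in 3 pools per treatment and region, and a pool's 3 regions came from the same mice. Each region occupied a pair of BeadChips of its own, each with 6 arrays. In every region the first BeadChip held pools 1 and 2 of vehicle and of Cpd-60 and pool 1 of SAHA and of CI-994, and the second held the rest. No BeadChip held arrays of more than 1 region, so in every comparison of regions, region and BeadChip cannot be told apart.

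Between 31.9% and 43.3% of all probes were detected on an array at a detection p of at most 0.01. SAHA pools 2 and 3 in the HIP were the dimmest arrays of that region, with 95th percentiles of raw intensity of 437.7 and 452. The dissections carried their own marker genes. The mean log2 intensity over 10 striatal medium spiny neuron markers was 10.11 to 10.75 in NAc arrays, against 7.49 to 7.77 for the PFC and 7.18 to 7.41 for the HIP. Over 5 hippocampal field markers it was 9.05 to 9.41 in the HIP and at most 7.26 elsewhere, and over 6 cortical glutamatergic markers it was highest in the PFC, at 8.48 to 8.88. In bulk tissue such as this, fewer cells of a type and less RNA per cell cannot be told apart.

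The members divided by how well the array saw them. Gad1, Gabrb1 and Gabrd each had a pair of probes detected on 36 of 36 arrays at a detection p of at most 0.01, and these 6 probes carry the results. Of the other 2 Gad1 probes, ILMN_2573826 was detected on 18 of 36 arrays and ILMN_1231642 on 0. The Gad2 probe ILMN_2668908, the Gabra4 probe ILMN_1237870 and the Gabra5 probe ILMN_2619378 were each detected on 0 of 36 arrays. Their normalized log2 intensities lay between 6.36 and 6.65, 6.38 and 6.81, and 6.33 and 6.68, and each one's values overlapped between the regions. No probe carried the symbol Gabra2. The arrays thus gave no level above background for Gabra4 and Gabra5, and no value for Gabra2. Of the 11 probes, 8 passed the filter on detection. ILMN_2573826 and ILMN_1237870 were among them, so the counts below are over the 6 probes detected on every array.

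A probe filed under a synonym of Gad2 was nonetheless well detected. RefSeq lists the clone symbol 6330404F12Rik as a synonym of Gad2, and the array's probe of that symbol, ILMN_2460754, was detected on 36 of 36 arrays. Its log2 intensity under vehicle was 11.93, 11.86 and 12.11 in the 3 NAc pools. The PFC pools read 9.89, 9.87 and 9.9 and the HIP pools 10.2, 9.95 and 9.87. The NAc pools stood far above all others, and the PFC and HIP overlapped. The NAc exceeded the PFC by 2.08 ± 0.13 (SE) on the log2 scale (limma adjusted p = 9.6e-13), and the HIP was below the NAc by -1.96 ± 0.13 (limma adjusted p = 2.98e-12). The HIP minus PFC difference was 0.12 ± 0.13 (limma adjusted p = 0.578). No drug effect on it had an unadjusted p below 0.05, the smallest being that of CI-994 in the HIP (-0.2, limma unadjusted p = 0.0828). This probe lies outside the symbol rule, was looked up after the values of the others were seen, and enters no count of members. Whether it reports the same transcript as the dim Gad2 probe was not tested.

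The sequences upstream of both decarboxylase genes are shown because HIP minus PFC was called for Gad1 and not for the probe under the older name of Gad2, a difference between probes that was not itself tested. They are the 250 bases before the transcription start in RefSeq on build GRCm38.p6, given 5′ to 3′ on the gene's own strand, with each match to the GC box GGGCGG (either strand) in capitals. The Gad1 sequence is at chr2:70561879-70562128 and the Gad2 sequence at chr2:22622077-22622326, both on the plus strand.
Gad1: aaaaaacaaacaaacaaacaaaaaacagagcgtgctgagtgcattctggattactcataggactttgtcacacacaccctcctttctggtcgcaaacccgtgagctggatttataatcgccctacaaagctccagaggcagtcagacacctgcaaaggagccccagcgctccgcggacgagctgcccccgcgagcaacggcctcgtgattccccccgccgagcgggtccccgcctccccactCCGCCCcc
Gad2: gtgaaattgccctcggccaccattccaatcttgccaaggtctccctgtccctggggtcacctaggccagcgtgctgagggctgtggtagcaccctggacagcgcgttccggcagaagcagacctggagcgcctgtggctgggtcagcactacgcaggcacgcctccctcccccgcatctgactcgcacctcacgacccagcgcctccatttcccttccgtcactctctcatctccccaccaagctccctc
The Gad1 window held 1 GC box, close to the start, and 1 match to TATAAA. That TATAAA match was on the opposite strand, printed above as tttata, near the middle of the window. The Gad2 window held 0 matches to the GC box and 0 to TATAAA. Among 32851 RefSeq promoter windows of the same length, 32.7% held a GC box and 12.4% held TATAAA on either strand. The cAMP response element TGACGTCA, found in 1.55% of windows, and the E-box CACGTG, found in 6.02%, were in neither. G and C made up 58% of the Gad1 window and 64% of that of Gad2, against a median of 52.4%. These are matches of letters and were not tested for binding.

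**Figure D1:**
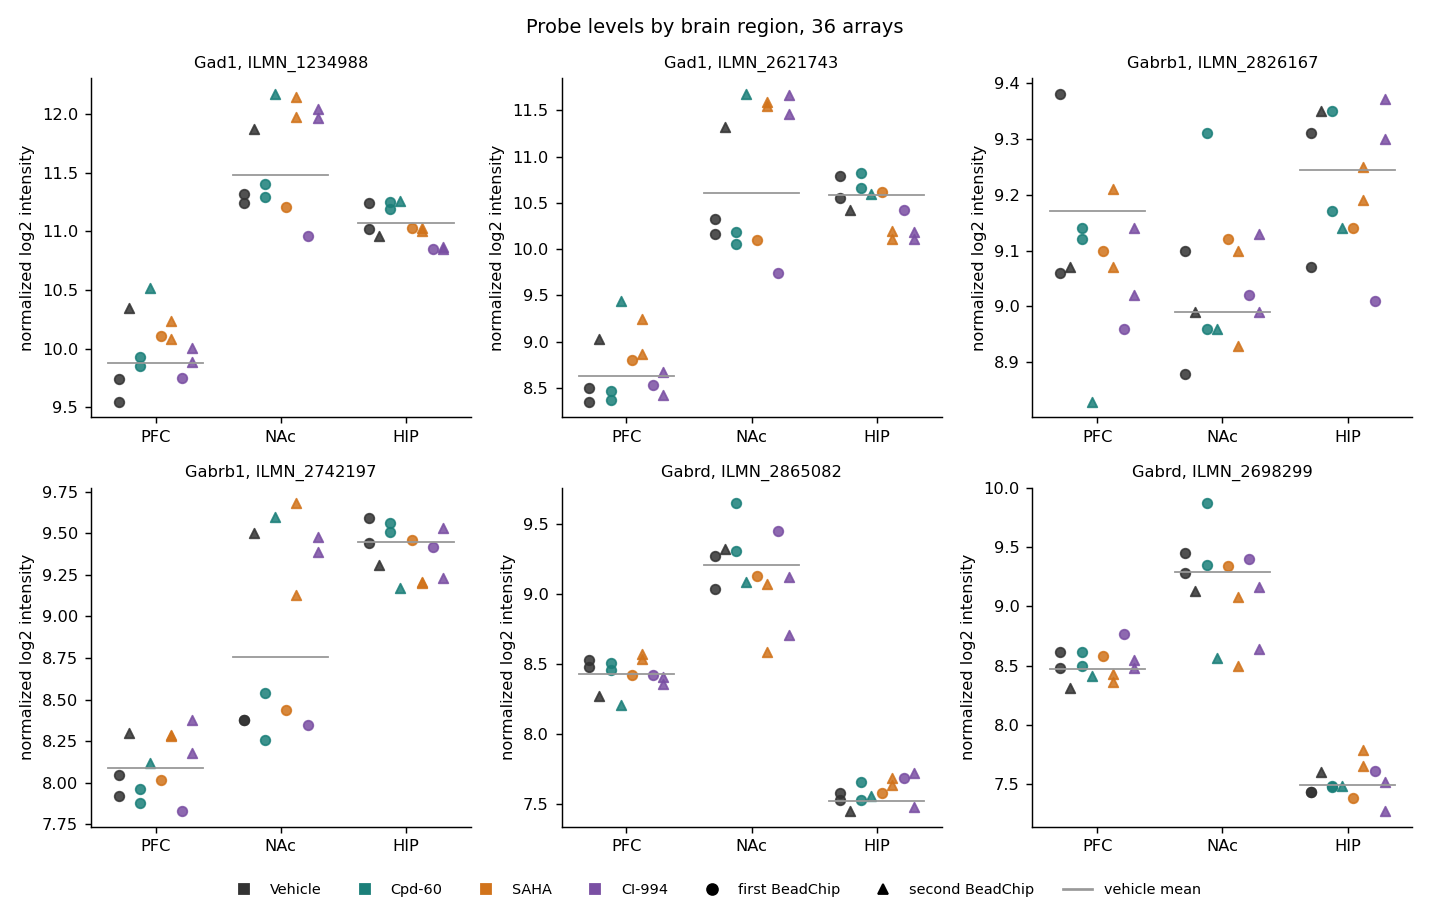
Normalized log2 intensity (vertical axis) of the 6 probes detected on every array, by region, for all 36 arrays. Colours mark the treatment, circles and triangles the first and second BeadChip of the region, and grey lines the vehicle means. Gad1 was lowest in the PFC and Gabrd lowest in the HIP, and in the NAc the triangles stand above the circles for both Gad1 probes and for Gabrb1 ILMN_2742197.

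Under vehicle, the genes called between regions by both of their well detected probes were Gad1, low in the PFC, and Gabrd, high in the NAc and low in the HIP. For Gabrb1 only 1 of its probes gave a call, with the HIP above the PFC. The dim Gad1 probe ILMN_2573826 gave none for HIP minus PFC. The question was where these genes were expressed in the absence of drug. The log2 intensity of the Gad1 probe ILMN_1234988 under vehicle was 9.55, 9.74 and 10.35 in the 3 PFC pools. It was 11.24, 11.32 and 11.87 in those of the NAc, and 11.24, 11.02 and 10.96 in those of the HIP. Every PFC pool lay below every pool of the other 2 regions. The NAc exceeded the PFC by 1.6 ± 0.26 (SE) on the log2 scale, a 3.03-fold difference (limma adjusted p = 3.59e-05), and the HIP exceeded it by 1.2 ± 0.26, or 2.29-fold (limma adjusted p = 0.00142). HIP minus NAc was -0.41 ± 0.26 with a 95% confidence interval from -0.93 to 0.12 (limma adjusted p = 0.358), so under vehicle alone the difference did not pass. Over all treatments 12 of 12 pools had less signal in the HIP than in the NAc, at differences of -1.17 to -0.01. The mean difference was -0.59 ± 0.13 (limma adjusted p = 0.000608). That mean covers 6 pools on the second BeadChip of each region, against 1 of 3 under vehicle. In the NAc this probe was higher on that BeadChip, as given below. Without vehicle replicate 1 the HIP minus PFC difference was 0.95 (limma adjusted p = 0.062).

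The other Gad1 probe, ILMN_2621743, gave the same low PFC. Its log2 intensity was 8.5, 8.35 and 9.03 there. The NAc pools read 10.16, 10.33 and 11.32 and the HIP pools 10.79, 10.55 and 10.42. The NAc was higher than the PFC by 1.97 ± 0.43 (limma adjusted p = 0.00155) and the HIP by 1.96 ± 0.43 (limma adjusted p = 0.00177). HIP minus NAc was -0.02, with an interval from -0.9 to 0.87, and it was positive in 6 of 12 pools. Over all treatments, 12 of 12 pools had more Gad1 signal in the NAc and in the HIP than in their own PFC by both probes.

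The Gad1 probe near background, ILMN_2573826, was detected in 3 of 3 vehicle pools of the NAc, 1 of 3 of the PFC and 0 of 3 of the HIP. Its vehicle log2 intensity was 7.06, 7.1 and 7.03 in NAc pools, 6.62, 6.67 and 6.82 in PFC pools and 6.65, 6.61 and 6.57 in HIP pools. The NAc was at least 1.28-fold above the HIP (means 7.06 and 6.61, limma adjusted p = 2.23e-05), taking for the HIP, array by array, the higher of the probe's own value and the dimmest detected probe. For this probe HIP minus PFC was -0.09 (limma adjusted p = 0.412).

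Gabrd had a gradient across all 3 regions. Under vehicle the log2 intensity of ILMN_2865082 was 9.04, 9.27 and 9.32 in NAc pools, 8.53, 8.48 and 8.27 in PFC pools and 7.53, 7.58 and 7.45 in HIP pools. No pool of one region overlapped another. The NAc was 1.72-fold above the PFC (log2 difference 0.78 ± 0.14, limma adjusted p = 0.000231), and the HIP was below the PFC by 1.87-fold (log2 difference -0.91 ± 0.14, limma adjusted p = 5.09e-05). HIP minus NAc was -1.69 ± 0.14, or 3.23-fold (limma adjusted p = 6.9e-10).

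ILMN_2698299, the other Gabrd probe, had log2 values under vehicle of 9.28, 9.45 and 9.13 in NAc pools, 8.48, 8.61 and 8.31 in PFC pools and 7.43, 7.43 and 7.6 in HIP pools. Its differences were 0.82 ± 0.22 for NAc minus PFC (limma adjusted p = 0.00905), -0.98 ± 0.22 for HIP minus PFC (limma adjusted p = 0.00192) and -1.8 ± 0.22 for HIP minus NAc (limma adjusted p = 4e-07). The first of these had an adjusted p of 0.0678, 0.076 and 0.0583 in limma without vehicle replicates 1, 2 and 3 in turn, at differences of 0.81 to 0.83. Without vehicle replicate 2, HIP minus PFC was -0.88 (limma adjusted p = 0.0509). Over all treatments, Gabrd signal was ordered NAc, PFC, HIP from high to low in 12 of 12 pools by both probes.

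The 2 Gabrb1 probes disagreed on HIP minus PFC under vehicle. The brighter, ILMN_2826167, gave vehicle values of 9.06, 9.38 and 9.07 for the PFC, 8.88, 9.1 and 8.99 for the NAc and 9.31, 9.07 and 9.35 for the HIP, which overlap. Its 3 differences were 0.07 (interval -0.15 to 0.29) for HIP minus PFC, -0.18 (-0.4 to 0.04) for NAc minus PFC and 0.25 (0.03 to 0.47) for HIP minus NAc, with limma adjusted p-values of 0.721, 0.305 and 0.148. Without vehicle replicate 2 the last was 0.39 (limma adjusted p = 0.0479). Over all treatments HIP minus NAc of ILMN_2826167 was 0.18 ± 0.05 (limma adjusted p = 0.0112), positive in 9 of 12 pools. ILMN_2742197 gave 7.92, 8.05 and 8.3 for the PFC, 8.38, 8.38 and 9.5 for the NAc and 9.59, 9.44 and 9.31 for the HIP. Here the HIP exceeded the PFC by 1.36 ± 0.31, or 2.56-fold (limma adjusted p = 0.00254). Without vehicle replicate 1 it was 1.2 (limma adjusted p = 0.0561). The NAc minus PFC difference of 0.66 ± 0.31 (limma adjusted p = 0.167) and the HIP minus NAc difference of 0.69 ± 0.31 (limma adjusted p = 0.164) did not pass, and 1 NAc pool lay far above the others. Over all treatments the NAc was above the PFC in 12 of 12 pools, by a mean of 0.83 ± 0.16 (limma adjusted p = 7.94e-05), and HIP minus NAc was 0.46 ± 0.16 (limma adjusted p = 0.0236), positive in 8 of 12. Without that pool, vehicle replicate 3, HIP minus NAc was 1.14 (limma adjusted p = 0.0352). The means over all treatments cover 6 pools on the second BeadChip of each region, against 1 of 3 under vehicle. In the NAc ILMN_2742197 was higher on that BeadChip by 1.09 ± 0.09, as given below. A probe named by another symbol for Gabrb1 in RefSeq, ILMN_1213005 (B230208N19Rik), had differences of 0.24 ± 0.1, 0.05 ± 0.1 and 0.19 ± 0.1 in the same order, with limma adjusted p-values of 0.076, 0.781 and 0.232. What the probes see differently was not tested, since the table used here gives no probe sequences or transcript positions.

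**Figure D2:**
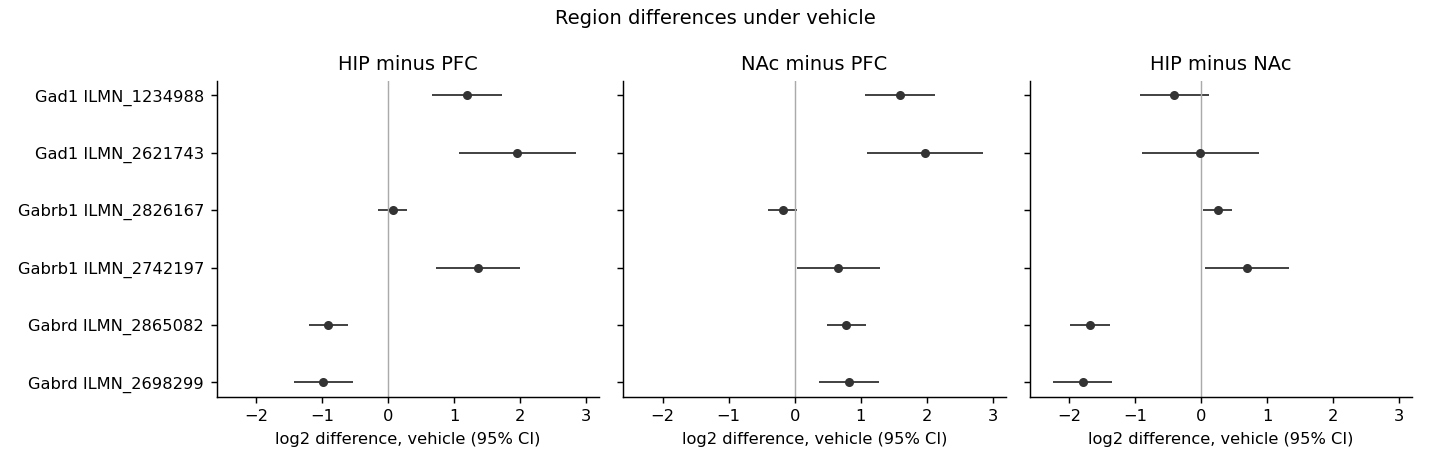
Difference in log2 intensity between regions under vehicle (horizontal axis, points) with 95% confidence intervals (lines) for the 6 probes detected on every array. Both Gad1 probes and both Gabrd probes lie clear of 0 for NAc minus PFC and HIP minus PFC, and the Gabrb1 probes lie apart for HIP minus PFC, at 0.07 and 1.36.

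Of the 6 well detected probes, 3 were called higher and 2 lower in the HIP than in the PFC, where 10.2% of all 26594 probes tested were called higher and 9.84% lower. In the NAc against the PFC, 4 were called higher and 0 lower, against 6.55% and 8.37% of all probes. Between HIP and NAc, 0 were called higher in the HIP and 2 lower, against 5.88% and 7.18%. The 6 probes represent 3 genes, and the pairs for Gad1 and Gabrd report the same gene.

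The other genes of GABA signaling moved in both directions between regions. Of 7 other GABA-A subunit genes tested, 2 were higher and 2 lower in the NAc than in the PFC (median log2 difference 0.13, against 0 over all probes). Gabra3, another alpha subunit, was lower in the NAc by -0.61 ± 0.11 (limma adjusted p = 0.000132) and lower in the HIP by -1 ± 0.11 (limma adjusted p = 9.85e-08). Gabrg1 (0.35 ± 0.09, limma adjusted p = 0.00976) was higher in the NAc than in the PFC and Gabrb2 (-0.31 ± 0.1, limma adjusted p = 0.0386) lower. HIP minus NAc was negative for Gabra3 (-0.4), Gabrg3 (-0.4) and Gabrg1 (-0.28), the 3 of 7 called there, and in HIP minus PFC 1 of 7 was higher and 1 lower (median -0.2).

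Of 7 genes for GABA transport, uptake and breakdown, 3 were higher and 1 lower in the NAc than in the PFC (median 0.06). Slc32a1, which loads GABA into vesicles, was higher by 1.76 ± 0.12 (limma adjusted p = 1.14e-11) and Abat, the transaminase that breaks GABA down, by 1.41 ± 0.16 (limma adjusted p = 2.18e-07). Aldh5a1, the next enzyme of that pathway, was higher by 0.29 ± 0.09 (limma adjusted p = 0.026), and the transporter gene Slc6a13 was lower by -0.82 ± 0.13 (limma adjusted p = 2.12e-05). In the HIP, Slc32a1 was below the NAc by -1.65 ± 0.12 (limma adjusted p = 3.63e-11), Abat by -0.86 ± 0.16 (limma adjusted p = 0.000381) and Aldh5a1 by -0.43 ± 0.09 (limma adjusted p = 0.00103), the 3 of 7 called (median -0.3). HIP minus PFC had 1 call in each direction, Abat (0.55) and Slc6a13 (-0.74). Slc32a1 was thus high in the NAc alone among the 3 regions, as was the probe filed under the older name of Gad2.

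Of the GABA-B receptor genes, Gabbr2 was lower in the NAc than in the PFC by -0.87 ± 0.12 (limma adjusted p = 2.73e-06) and lower in the HIP than in the PFC by -0.46 ± 0.12 (limma adjusted p = 0.00565). Against the NAc, the HIP had more Gabbr2 (0.4, limma adjusted p = 0.0193) and less Gabbr1 (-0.38, limma adjusted p = 0.0458). Of 9 genes of the inhibitory postsynapse and of chloride transport, 0 were called in NAc minus PFC. Slc12a2, the chloride importer NKCC1, was higher in the HIP than in the PFC by 0.63 ± 0.12 (limma adjusted p = 0.000345) and than in the NAc by 0.4 ± 0.12 (limma adjusted p = 0.0196), and Gabarapl1 was lower in the HIP than in the PFC by -0.56 ± 0.14 (limma adjusted p = 0.00519).

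Markers of GABA neuron classes moved in several directions. Of 11 interneuron markers, 1 was higher and 3 lower in the NAc than in the PFC (Dlx6 at 1.36, Pvalb at -1.98, Vip at -1.05 and Nxph1 at -0.36). The list's mean log2 intensity per array overlapped between regions, at 8.19 to 8.44 for the PFC, 8.09 to 8.43 for the NAc and 8.21 to 8.42 for the HIP. In HIP minus PFC, Sst was higher (1.15 ± 0.28, limma adjusted p = 0.00351) and Npy lower (-0.6 ± 0.13, limma adjusted p = 0.00141). Of the 10 striatal medium spiny neuron markers, whose cells themselves use GABA, 10 were higher in the NAc than in the PFC (median 3.28) and 10 lower in the HIP than in the NAc. Their part in the levels of the members was not tested.

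The level of both well detected Gad1 probes and of 1 Gabrb1 probe in the NAc also differed between the BeadChips, whatever the treatment. The BeadChips held different pools of mice. This comparison was added after the values were seen. On the first BeadChip of the NAc, Gad1 ILMN_1234988 ranged from 10.96 to 11.4 and on the second from 11.87 to 12.17, with no overlap among 6 and 6 arrays. Gad1 ILMN_2621743 ranged from 9.74 to 10.33 and from 11.32 to 11.68. Gabrb1 ILMN_2742197 ranged from 8.26 to 8.54 and from 9.13 to 9.68. With treatment as a covariate the second BeadChip was higher by 0.83 ± 0.07, 1.48 ± 0.1 and 1.09 ± 0.09, with limma adjusted p-values of 6.29e-06, 1.23e-06 and 8.26e-06. The 3 drugs and vehicle all followed this split.

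For the remaining probes, no higher level on the second BeadChip passed the test. Gabrb1 ILMN_2826167 differed by -0.06 ± 0.08 (limma adjusted p = 0.642), Gad1 ILMN_2573826 by -0.09 ± 0.06 (limma adjusted p = 0.302) and the 6330404F12Rik probe by 0.11 ± 0.1 (limma adjusted p = 0.514). Gabrd ILMN_2698299 was lower on the second BeadChip, by -0.58 ± 0.16 (limma adjusted p = 0.0209), while the other Gabrd probe differed by -0.27 ± 0.13 (limma adjusted p = 0.184). The call for ILMN_2698299 was lost without Cpd-60 replicate 3 (-0.43, limma adjusted p = 0.102) and without SAHA replicate 1 (-0.6, limma adjusted p = 0.0614), and ILMN_2865082 gained one without vehicle replicate 3 (-0.41, limma adjusted p = 0.0476). Of all probes tested in the NAc, 22.9% differed between BeadChips, against 0.144% in the PFC and 1.19% in the HIP. In the PFC the same 3 probes were 0.31 to 0.48 higher on the second BeadChip without passing, and in the HIP they differed by -0.28 to -0.03. The difference varied between regions for 4 of the 6 probes (limma F test, adjusted p = 8.1e-06, 1.45e-08, 3.34e-09 and 0.0177 for the Gad1 pair, Gabrb1 ILMN_2742197 and Gabrd ILMN_2698299), where 15.1% of all probes did.

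In the NAc, Sst was higher on the second BeadChip by 0.87 ± 0.06 (limma adjusted p = 1.05e-06) and Abat by 0.48 ± 0.06 (limma adjusted p = 0.000185). Slc32a1 differed by 0.08 ± 0.06 (limma adjusted p = 0.433). Of 10 interneuron markers tested there, 1 was called higher (Sst) and 1 lower on the second BeadChip (median 0.01). Of 7 genes for GABA transport, uptake and breakdown, 1 was called higher and 0 lower. Of the 2 GABA-B receptor genes, 0 were called higher and 2 lower (median -0.22). The mean of the interneuron markers in the NAc was 8.09 to 8.32 on the first BeadChip and 8.13 to 8.43 on the second, and that of the striatal markers 10.34 to 10.75 and 10.11 to 10.69, so both lists overlapped. The same 6 pools lay on the first BeadChip in every region, so BeadChip and pools of animals cannot be told apart.

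**Figure D3:**
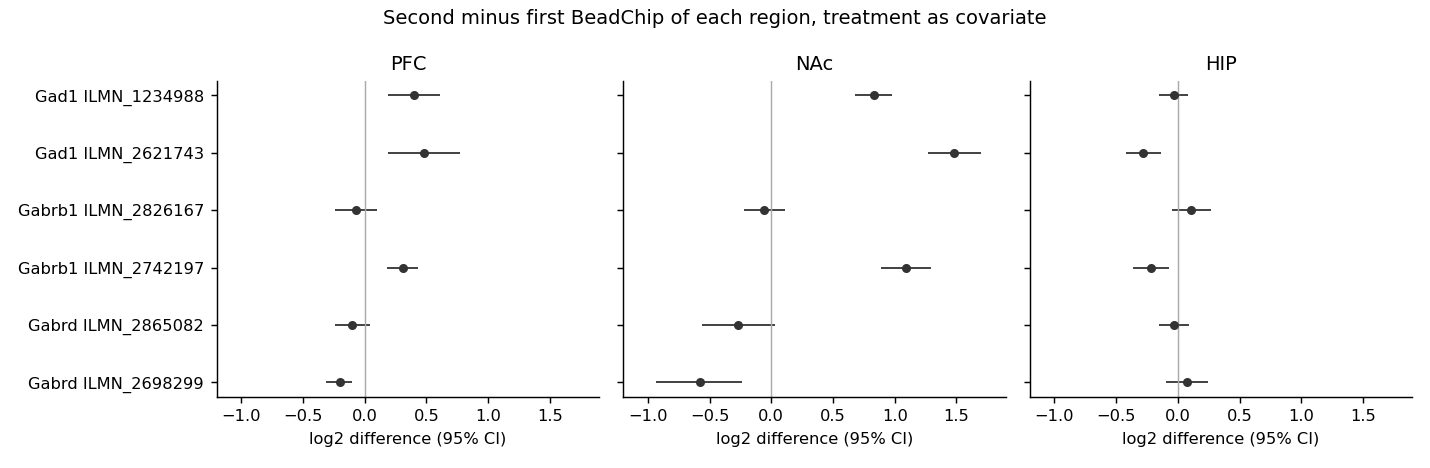
Second minus first BeadChip of each region in log2 intensity (horizontal axis, points) with 95% confidence intervals (lines), with treatment as a covariate, 6 arrays on each BeadChip. In the NAc the Gad1 probes and Gabrb1 ILMN_2742197 lie 0.83 to 1.48 above 0 and Gabrb1 ILMN_2826167 lies at -0.06.

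Beside this, the region differences under vehicle were split into the pools on each region's first BeadChip (2 vehicle pools) and second (1 pool), as values with no test. In these subsets in turn, NAc minus PFC was 1.64 and 1.53 for Gad1 ILMN_1234988 and 1.82 and 2.28 for ILMN_2621743. HIP minus PFC was 1.49 and 0.61 for ILMN_1234988 and 2.24 and 1.39 for ILMN_2621743. The PFC was lowest in both subsets, each of which still compares different BeadChips. HIP minus NAc for ILMN_2621743 was 0.42 in the first subset and -0.9 in the second, and for Gabrb1 ILMN_2742197 1.14 and -0.2, so the order of HIP and NAc turned between the subsets for these probes. For Gad1 ILMN_1234988 the order held, but HIP minus NAc was -0.15 in the first subset and -0.92 in the second. For Gabrd ILMN_2865082, HIP minus NAc was -1.6 and -1.87.

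**Figure D4:**
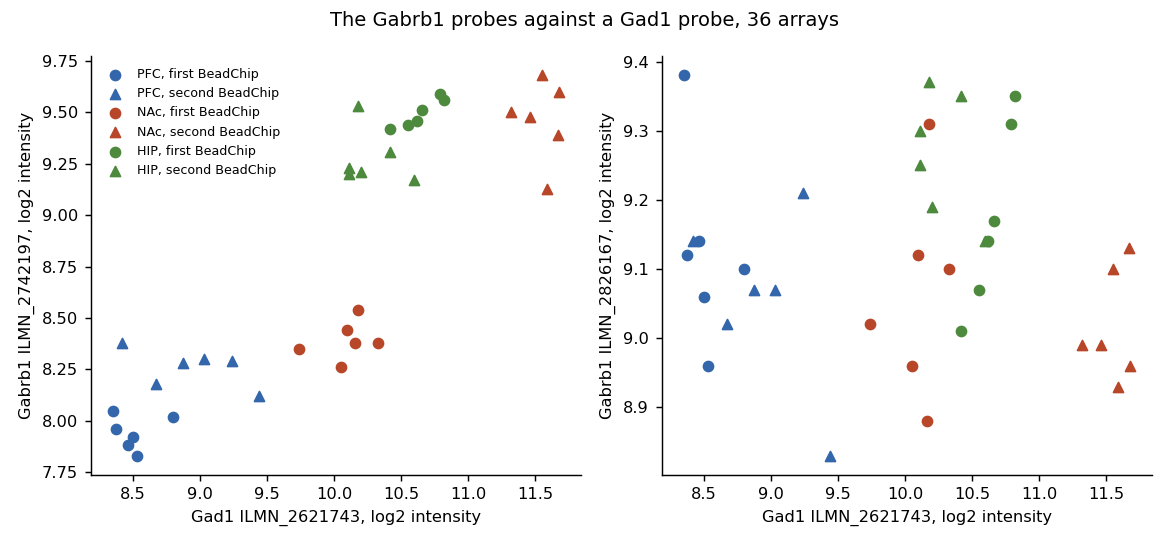
Log2 intensity of Gabrb1 ILMN_2742197 (left) and ILMN_2826167 (right) against Gad1 ILMN_2621743 (horizontal axis) on 36 arrays, coloured by region, with circles for the first and triangles for the second BeadChip. The left panel shows the NAc arrays in separate groups by BeadChip (r = 0.95 over the 12 arrays), while the right shows no such split (r = -0.15).

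Over the 12 NAc arrays, Gad1 ILMN_2621743 had a Pearson r of 0.95 with Gabrb1 ILMN_2742197, -0.15 with Gabrb1 ILMN_2826167 and -0.79 with Gabrd ILMN_2698299. These correlations are descriptions over arrays that share the BeadChips. Over all 36 arrays, which also share the regions, the genes most like Gad1 ILMN_1234988 among 10268 were Inpp5f (r = 0.971), Cntnap2 (0.963) and Slmap (0.953), and those most like ILMN_2621743 were Rgs10 (0.981), Klhl7 (0.973) and Slc25a14 (0.965). The nearest to Gabrb1 ILMN_2742197 were BC085271 (0.984), 4933427G23Rik (0.978) and Mrps18c (0.978). For ILMN_2826167 the nearest reached only 0.668 (4631427C17Rik), 0.661 (Gse1) and 0.634 (Pcdh19). Gabrd ILMN_2865082 was most like LOC268934 (0.969), Arpp21 (0.968) and Pmepa1 (0.965), and ILMN_2698299 like Plxnd1 (0.962), Prosapip1 (0.962) and Kcnt1 (0.961).

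On quantile-normalized values, no inhibitor changed a member past correction for multiple testing. In each of the 9 comparisons of a drug with vehicle, 0% of all probes and 0 members' probes had a limma adjusted p below 0.05. Over the 6 well detected probes, the 54 differences ranged from -0.35 to 0.48 on the log2 scale, and the smallest limma adjusted p was 0.542. At an unadjusted p below 0.05, 3 of the 54 passed (5.56%), all Gad1 in the HIP, and with pools that did not overlap vehicle, 2 of the 54. Over all probes in the same 9 comparisons, 4.24% passed unadjusted and 10.5% had pools that did not overlap. The members' unadjusted share was thus near that of all probes, and their count of pools apart was not above it. The 3 that passed were among the 18 comparisons in the HIP, with 0 in the PFC and 0 in the NAc.

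In the HIP the Gad1 probes were lowest under CI-994. ILMN_1234988 read 10.85, 10.87 and 10.85 in the 3 CI-994 pools against 11.24, 11.02 and 10.96 under vehicle, and ILMN_2621743 read 10.42, 10.18 and 10.11 against 10.79, 10.55 and 10.42. For the first, all CI-994 pools lay below all vehicle pools. For the second, the highest CI-994 pool and the lowest vehicle pool met at 10.42 after rounding. The differences were -0.21 ± 0.07 (limma unadjusted p = 0.00914, adjusted p = 1) and -0.35 ± 0.14 (limma unadjusted p = 0.0239, adjusted p = 1). In the HIP under CI-994, 3.24% of all probes had an unadjusted p below 0.05 and 9.58% had pools that did not overlap. The call for ILMN_2621743 was lost without vehicle replicate 1 (-0.25, limma unadjusted p = 0.11) and without CI-994 replicates 2 (-0.32, limma unadjusted p = 0.0569) and 3 (-0.29, limma unadjusted p = 0.0839). Within the first BeadChip the differences were -0.28 and -0.25 and within the second -0.09 and -0.28. The dim Gad1 probe ILMN_2573826 moved the other way, by 0.07 ± 0.06 (limma unadjusted p = 0.237). Its CI-994 pools (6.68, 6.7 and 6.66) all lay above vehicle (6.65, 6.61 and 6.57). With it, 3 of the 7 members' probes tested there had pools apart from vehicle, against the 9.58% of all probes.

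Under Cpd-60 in the HIP, Gad1 ILMN_1234988 read 11.19, 11.25 and 11.26, overlapping vehicle, at a difference of 0.16 ± 0.07 (limma unadjusted p = 0.0412, adjusted p = 0.942), where 5.26% of all probes passed unadjusted and 12.2% did not overlap. It was 0.1 to 0.16 without each of vehicle replicates 2 and 3, Cpd-60 replicates 2 and 3 and CI-994 replicates 1 and 3 in turn, and no longer passed (limma unadjusted p = 0.0504 to 0.187). ILMN_2621743 gave 0.11 ± 0.14 (limma unadjusted p = 0.444). Under SAHA in the HIP the Gad1 differences were -0.05 ± 0.07 and -0.28 ± 0.14 (limma unadjusted p = 0.465 and 0.0653). There 9.37% of all probes passed unadjusted and 19.3% did not overlap, and 0 members' probes did either. When arrays were instead scaled by their medians, SAHA in the HIP alone gave adjusted calls, 3241 of 23275 probes with 3233 lower, and the median of all probes was -0.19. Both Gad1 probes were among them, at -0.64 and -0.86 (limma adjusted p = 0.0449 and 0.0477), both Gabrb1 probes read -0.72 and -0.61 without passing, and the Gabrd differences turned from 0.12 to -0.25. SAHA pools 2 and 3 were the dim arrays of the HIP, and the part of this in the median-scaled values was not tested. The doses of the 3 compounds differ, so they are set side by side and not tested against each other. With the BeadChip as a block, the CI-994 differences were -0.2 ± 0.07 and -0.26 ± 0.09 (limma unadjusted p = 0.0163 and 0.0126).

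In the PFC, 0 of the 6 probes passed an unadjusted p of 0.05 under any drug. The share of all probes passing was 5.19% for Cpd-60, 2.25% for SAHA and 3.98% for CI-994, and the shares with pools that did not overlap were 9.68%, 8.68% and 10.7%. The 18 differences there ranged from -0.14 to 0.34, and the interval for Gad1 ILMN_2621743 under SAHA ran from -0.19 to 0.87. Of the 8 probes tested, the Gabra4 probe at background was the only one in the PFC whose SAHA pools lay apart from vehicle (6.46, 6.55 and 6.54 against 6.56, 6.67 and 6.62), at -0.1 ± 0.06 (limma unadjusted p = 0.119). With the BeadChip as a block, Gabrd ILMN_2698299 was higher under CI-994 in the PFC by 0.2 ± 0.06 (limma unadjusted p = 0.00948, adjusted p = 0.986), while ILMN_2865082 differed by 0 ± 0.09.

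In the NAc, 0 probes passed unadjusted and 0 had pools apart. All probes passed in shares of 4.77% for Cpd-60, 2.05% for SAHA and 1.99% for CI-994, and 9.38%, 7.11% and 7.61% did not overlap. The intervals there were wide for the probes that split by BeadChip. For Gad1 ILMN_2621743 under SAHA the difference was 0.48 with an interval from -0.9 to 1.86, the SAHA pools reading 10.1, 11.59 and 11.55 against 10.16, 10.33 and 11.32. SAHA and CI-994 had 2 pools on the second BeadChip and vehicle 1. With the BeadChip as a block this difference was -0.02, from -0.31 to 0.28, and that of Cpd-60 was 0.03, from -0.25 to 0.32. For Gad1 ILMN_1234988 the intervals with the block ran from -0.05 to 0.34 under Cpd-60, -0.18 to 0.22 under SAHA and -0.3 to 0.1 under CI-994. For Gabrb1 ILMN_2742197 they ran from -0.22 to 0.32, -0.31 to 0.24 and -0.32 to 0.23.

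Gabrd in the NAc under Cpd-60 read 9.65, 9.31 and 9.09 by ILMN_2865082, around vehicle at 9.04, 9.27 and 9.32. The value of 9.65 came from pool 1, the dimmest array. The differences of this probe were 0.14 ± 0.21, -0.28 ± 0.21 and -0.12 ± 0.21 under Cpd-60, SAHA and CI-994, with intervals that reached -0.74 and 0.6. In the HIP both Gabrd probes differed from vehicle by -0.02 to 0.12 over the 3 drugs, and both Gabrb1 probes by -0.16 to -0.02.

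**Figure D5:**
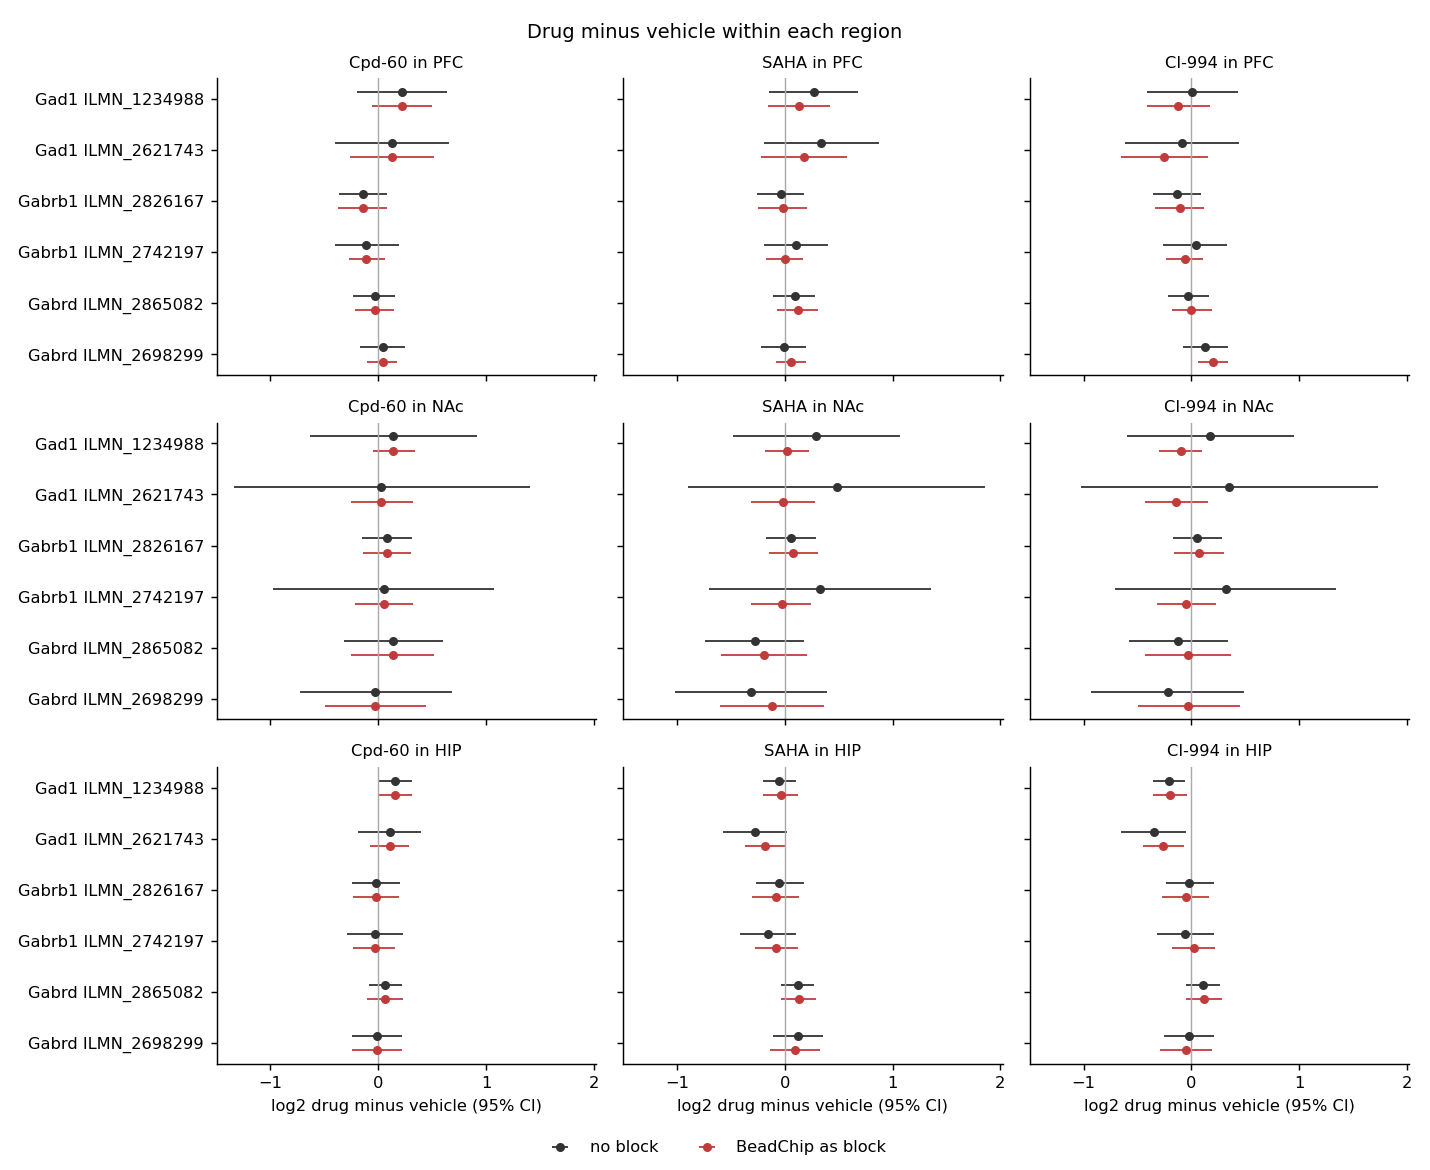
Drug minus vehicle in log2 intensity (horizontal axis, points) with 95% confidence intervals (lines) for the 6 probes in each region and under each drug, without a block (black) and with the BeadChip as a block (red). The intervals of the Gad1 probes and of Gabrb1 ILMN_2742197 in the NAc narrow with the block, for Gad1 ILMN_2621743 under SAHA from -0.9 to 1.86 to -0.31 to 0.28.

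Whether a drug acted differently between regions was tested by the F test of each drug's effects over the 3 regions. For each drug 0% of all probes and 0 members passed at an adjusted p of 0.05. Unadjusted, 2.63% of all probes passed for Cpd-60, 4.38% for SAHA and 1.99% for CI-994, and 0 members. The smallest member p was 0.12 (limma, unadjusted), for Gabrd ILMN_2865082 under SAHA, whose effect was lower in the NAc than in the PFC by -0.36.

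Of the other genes of GABA signaling, 11 of 207 comparisons of a drug with vehicle (5.31%) had an unadjusted p below 0.05, and 0 an adjusted one. Over all probes and the same 9 comparisons the share was 4.24%, and pools did not overlap in 9.18% of the 207 against 10.5% of all. Both shares were thus near those of all probes. In the NAc under Cpd-60, Gabrg3 was -0.27 ± 0.08 from vehicle (limma unadjusted p = 0.008) and Gabrb2 0.18 ± 0.08 (0.0379). In the HIP, Slc12a2 was -0.28 ± 0.09 from vehicle under SAHA (0.00865) and -0.25 ± 0.09 under CI-994 (0.0168), while Aldh5a1 was -0.24 ± 0.08 (0.0088) under Cpd-60. In the PFC, Gabrg1 was 0.15 ± 0.07 under CI-994 (0.0449) and Gabarapl1 -0.19 ± 0.08 under SAHA (0.0326). Of the 11, 10 had pools that did not overlap vehicle, while Slc12a5 in the NAc under CI-994 (0.21 ± 0.09, limma unadjusted p = 0.0382) had pools that did. The lists' median differences from vehicle lay between -0.15 and 0.19 on the log2 scale.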

How the data were processed

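The table held an intensity per probe and array, deposited by the authors as non-normalized (the scanner software is not given in the sources used here), and a detection p-value per probe and array, which the authors deposited beside them. All 36 arrays were mapped to a treatment, region and pool by their labels, and 0 columns of per-sample values were left out. Cpd-60 pool 3+4 was placed by its title, since its description repeats another pool's number.

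Intensities were quantile-normalized over the 36 arrays, floored at 1 and converted to log2. Probes with a detection p of at most 0.2 in 3 of 3 arrays of a group were tested with limma 3.58.1 in R 4.3.3, with Benjamini-Hochberg adjustment over all probes and a threshold of 0.05. Regions were compared in 1 fit of all arrays, with the pool as a random block (estimated correlation -0.013). Drugs were compared with vehicle within each region. The BeadChip comparisons were added after the data were seen. SE is the standard error from limma, with 3 pools per group, and the number of arrays limits the precision. P-values measure the spread between pools of 2 mice, which in fits without the BeadChip includes any difference between BeadChips. The fit of regions takes 1 spread per probe over all treatments and regions. For probes that split by BeadChip in the NAc, that split therefore enters the SE of every region difference, also HIP minus PFC. For Gad1 ILMN_2621743 the standard deviation under vehicle was 0.63 in the NAc, 0.36 in the PFC and 0.19 in the HIP. Scripts were tested on simulated data.

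The arrays' design symbols were used as given, and 22024 of 30854 were in the RefSeq table. Genes were named if they were members, if they passed adjusted p in a region contrast (at most 4 a list) or unadjusted p with pools apart under a drug, or if they were the 3 most correlated with a member's probe. Some genes that these rules select are not reported here by name. Slc12a5, Dlx6, Pvalb, Vip, Nxph1, Sst, Npy and the older-symbol probes were named after their values were seen. The members and the gene lists were chosen with earlier results of these data known. Pools of one number in different treatments of a region deviated with correlations from -0.42 to 0.86 (median 0.21, 32 of 54 over 0.1). In every treatment pool 1 lay on the first BeadChip and pool 3 on the second, so number and BeadChip partly coincide. The main fits did not use the number as a block, and fits that did are among the alternatives. Alternatives were median scaling, background correction with normexp (neqc, offset 16), other detection filters, other blocks, analysis of variance with Tukey's test, and leaving out each pool or the CI-994 arrays.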

Additional observations from a re-analysis of the deposited data

Results flagged for a closer look

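The difference between the first and the second BeadChip of a region varied between regions for 4 of the 6 well detected probes, where 15.1% of all probes tested did. This was tested by the limma F test of that difference over the 3 regions, added after the values were seen. Within the NAc alone, 22.9% of all probes differed between the BeadChips. In the NAc, the second BeadChip was higher by 0.83 for Gad1 ILMN_1234988 (adjusted p of the F test 8.1e-06), by 1.48 for Gad1 ILMN_2621743 (1.45e-08) and by 1.09 for Gabrb1 ILMN_2742197 (3.34e-09), and it was lower for Gabrd ILMN_2698299, at -0.58 (0.0177). The corresponding differences in the PFC were 0.4, 0.48, 0.31 and -0.2, and in the HIP -0.03, -0.28, -0.22 and 0.07. Because the same pools shared the first BeadChip in every region, BeadChip and pools cannot be told apart, and the cause was not tested.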

How the results depend on the processing

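Of 910 alternative values, 820 kept their side of the threshold, moved by less than the spread between replicates or, for counts, stayed within 1.5 times, while 53 were weaker, 21 stronger, 3 reversed and 13 moved. The sign of a single probe's value turned in 13 of 692 alternatives, 9 of them among the 820, for values that did not pass the test. HIP minus NAc for Gad1 ILMN_2621743 turned with median scaling (0.24) and without vehicle replicate 3 (0.42). It was 0.57 with the BeadChip as a fixed block, and passed there (limma adjusted p = 0.0084). That fit takes each region's first BeadChip as reference and so gives the first-BeadChip value. The dim probe ILMN_2573826 in place of ILMN_1234988 gave -0.09 for HIP minus PFC and 0.07 for CI-994 in the HIP. Over the 8 probes tested, 5 member probes were called in HIP minus PFC (3 to 5 without each replicate in turn, 3 without vehicle replicate 1), 5 in NAc minus PFC (4 to 5, and 2 with median scaling) and 3 in HIP minus NAc (3 to 4, then 6 for the mean over the 4 treatments and 5 in that first-BeadChip fit). With no pool block, or the pool as a fixed replicate block, these counts were again 5, 5 and 3. Members with an unadjusted p below 0.05 under Cpd-60 were 1 (0 to 1 without each replicate) and 0 with median scaling, neqc, detection p at most 0.01, the CI-994 arrays left out, the pool number as replicate block, or Tukey's test. Under SAHA they were 0 (0 to 2), 5 with median scaling and 2 with the number as replicate block, and under CI-994 2 (1 to 2), then 0 with median scaling and 1 with neqc or Tukey's test. Adjusted drug calls were 0, or 2 with median scaling. BeadChip calls in the HIP were 0 (0 to 2) and 2 without the CI-994 arrays, and in the NAc 4 (3 to 5). With median scaling, Gabrd ILMN_2865082 lost its calls for HIP minus PFC (-0.71, limma adjusted p = 0.116) and NAc minus PFC (0.76, limma adjusted p = 0.147), and with the number as replicate block the BeadChip difference of Gabrd ILMN_2698299 in the NAc was -0.04. The cause was not tested in any of these cases.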
